A study of Mus musculus with 3 samples.

Results

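Lipocalins are small secreted proteins with a barrel-shaped pocket that carries hydrophobic molecules, and acute-phase proteins are secreted in larger amounts during infection and injury, above all by the liver. The 8 genes described here encode secreted proteins of these families and their functional neighbours. Lcn2 (lipocalin 2) withholds iron from bacteria by binding their siderophores, Apod (apolipoprotein D) is a lipocalin that binds arachidonic acid and other lipids, and Orm1 (orosomucoid 1) is a plasma lipocalin that binds drugs and lipids. Hp (haptoglobin) captures free haemoglobin, Saa3 (serum amyloid A3) is the serum amyloid of mouse tissues outside the liver, and Cp (ceruloplasmin) is a copper enzyme that oxidises ferrous iron. Slpi inhibits neutrophil elastase, and Camp is the precursor of the antimicrobial peptide cathelicidin. Bone marrow stromal cells, osteoblasts and adipocytes are all known sources of Lcn2, and Hp and Saa3 are also made by adipocytes.

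The 8 genes were found through the transcript accession of each probe, which gave 10 of 26755 named probes and 8 of 20279 named genes. They had been picked with earlier results of these arrays known, largely for rising in culture, so their values are a description and were not tested. Gene expression was measured on 3 Agilent 1-colour microarrays of primary mouse mesenchymal stem cells (MSCs) from the bone marrow of male animals aged 8 weeks. The groups were MSCs at day 0, before induction, and osteogenic cultures at day 3 and day 21 in medium with ascorbic acid (50 μg/mL) and beta-glycerophosphate (10 mM), with 1 array each. The labels name no strain or genotype and do not say how many animals gave the cells.

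Each group had 1 array, so no difference had a replicate check and no p-value was computed. The file headers put day 21 with day 0 on slide 1 and in scan 1, and day 3 on its own on slide 2 and in scan 2, so for day 3 the effects of slide and time cannot be told apart. Between 63.8% and 66.2% of the named genes were well above background, which is the scanner software's own mark for a spot. All 10 marrow stromal marker genes were above background on all 3 arrays, the leukocyte gene Ptprc on none. Of 12 macrophage genes, 4, 5 and 6 were above background on days 0, 3 and 21, and of 14 granulocyte genes 3, 2 and 4. Osteoblast markers detected numbered 5, 7 and 9 of 10 on days 0, 3 and 21, and Sp7, a defining osteoblast transcription factor, was on none. In such bulk samples, fewer cells of a type and less RNA per cell cannot be told apart. Signals below are the deposited linear processed signals, and differences and folds were taken after each array was scaled to its 75th percentile, so a fold is not exactly the ratio of the printed signals. Errors of differences are SDs of the scanner software's error model and cover the array only.

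Promoter sequences are shown because 7 of the 8 genes were higher together at day 3. RefSeq windows (GRCm38.p6) from 250 bases before to 50 after an annotated start were matched for 6 of the 8 genes, with 2 starts for Cp. Hp and Orm1 had no window, and the 2 Cp windows overlap. The windows shown are those that hold TTGCNNAA, a core recognised by C/EBP factors, which drive many acute-phase genes. Capitals mark the match, and each window reads 5′ to 3′ on its gene's strand.
Lcn2, chr2:32387690-32387989, minus strand: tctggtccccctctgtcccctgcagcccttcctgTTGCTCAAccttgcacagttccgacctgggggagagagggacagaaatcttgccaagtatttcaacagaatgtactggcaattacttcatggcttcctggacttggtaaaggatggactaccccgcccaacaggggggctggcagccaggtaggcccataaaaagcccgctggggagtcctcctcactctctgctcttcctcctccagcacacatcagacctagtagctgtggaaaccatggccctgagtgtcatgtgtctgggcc
Saa3, chr7:46715627-46715926, minus strand: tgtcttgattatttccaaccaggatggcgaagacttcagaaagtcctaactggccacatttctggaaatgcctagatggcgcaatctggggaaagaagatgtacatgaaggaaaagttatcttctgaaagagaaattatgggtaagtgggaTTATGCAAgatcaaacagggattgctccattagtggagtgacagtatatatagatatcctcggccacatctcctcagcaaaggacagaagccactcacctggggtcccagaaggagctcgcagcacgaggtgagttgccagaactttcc
Cp, start 2, chr3:19956999-19957298, plus strand: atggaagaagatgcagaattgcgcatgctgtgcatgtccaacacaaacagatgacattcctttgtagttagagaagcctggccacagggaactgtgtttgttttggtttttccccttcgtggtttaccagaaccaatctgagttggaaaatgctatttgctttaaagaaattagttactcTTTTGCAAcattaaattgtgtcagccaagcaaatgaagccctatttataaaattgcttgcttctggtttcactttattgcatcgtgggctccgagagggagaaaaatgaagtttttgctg
Slpi, chr2:164356458-164356757, minus strand: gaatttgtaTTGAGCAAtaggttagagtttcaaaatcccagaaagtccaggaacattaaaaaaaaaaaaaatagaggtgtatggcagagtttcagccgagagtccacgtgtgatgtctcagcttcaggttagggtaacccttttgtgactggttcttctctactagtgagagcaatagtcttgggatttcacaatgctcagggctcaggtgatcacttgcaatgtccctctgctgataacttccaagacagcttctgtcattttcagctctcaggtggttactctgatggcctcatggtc

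The C/EBP core was found in 4 of the 7 windows and in 10.8% of 32851 promoter windows of the same length, on either strand. It began 216 bases before the start in Lcn2, 99 before in Saa3, 70 before the second Cp start and 241 before in Slpi, and it overlapped no other motif searched. The STAT palindrome TTCNNNGAA (8.3% of all windows) and the glucocorticoid receptor palindrome (0.475%) were in none of the 7. The 10-base NF-kB consensus (8.46%) was in the Camp window only, after the start. TATAAA (13.6%) was in the second Cp window only, as 2 overlapping matches. These matches describe letters in a window and not binding. The motifs were chosen after the data were seen, so nothing is read from their counts beside the shares.

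**Figure D1:**
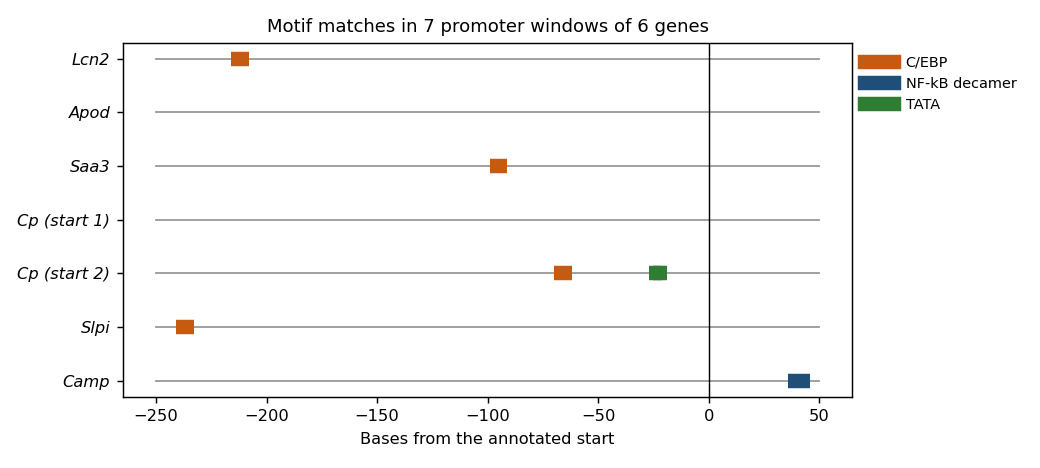
Positions of motif matches in the 7 RefSeq promoter windows, in bases from the annotated start (vertical line). A C/EBP core lies upstream of the start in Lcn2, Saa3, the second Cp start and Slpi, and the windows of Apod and the first Cp start hold no match.

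After 3 days of induction Lcn2, Apod, Hp, Slpi, Saa3, Cp and Camp were all more than 2-fold higher than at day 0, and Orm1 was not above background on either array. The measured differences ran from 5.64-fold for Camp to 118-fold for Lcn2, and the bounds from at least 42.8-fold for Saa3 to at least 1584-fold for Hp. A bound is given where the gene was above background on 1 array only, and sets the brighter value against the detection limit of the dimmer array or the dim probe's own value, whichever was higher. Of the 7 genes above background on at least 1 of the arrays, 7 passed 2-fold and 6 passed 16-fold, all higher at day 3, where 9.32% and 0.765% of 13600 genes were. By day 21 the count past 2-fold was 8 of 8 and the count past 16-fold was 7, relative to day 0, where 15.4% and 2.19% of 13970 genes were. Since the genes were picked on these differences, nothing is read from these counts.

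Among the lipocalins, Lcn2 had a processed signal of 33.5 at day 0, 4007 at day 3 and 19193 at day 21. Its log2 difference was 6.88 ± 0.23 for day 3 minus day 0 and 9.01 ± 0.23 for day 21 minus day 0, which is 118-fold and 517-fold. The gene was above background on all 3 arrays, and each later day was higher than the one before it. Apod, on the probe that represents it, had signals of 738 at day 0, 55738 at day 3 and 199609 at day 21. The 2 Apod probes gave nearly the same differences although one was far brighter than the other, 6.22 and 6.16 for day 3 minus day 0 and 7.93 and 7.86 for day 21 minus day 0. Apod was 74.5-fold higher at day 3 and 244-fold higher at day 21 than at day 0, and no spot on any of the arrays was saturated. Orm1 had signals of 2.67 at day 0, 6.18 at day 3 and 428 at day 21, and only the last was above background. It was at least 37.9-fold higher at day 21 than at day 0 and at least 37.1-fold higher at day 21 than at day 3. Orm1 was thus the only one of the 8 that was not detected at day 3, and since Orm1, Orm2 and Orm3 are close copies that a probe may not tell apart, its single value is uncertain.

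Among the plasma proteins that handle haemoglobin and iron, Hp had signals of 10.2 at day 0, 16415 at day 3 and 166113 at day 21. Its day 0 signal lay at the detection limit, since the lowest signal well above background on that array was also 10.2. Hp was at least 1584-fold higher at day 3 and at least 14673-fold higher at day 21 than at day 0, the largest bound of 665 and of 1001 genes with a higher bound. Cp was above background throughout, at 96.0, 2277 and 7139 on days 0, 3 and 21. Cp was higher by 4.55 ± 0.21 at day 3 and by 6.07 ± 0.21 at day 21, or 23.4-fold and 67.1-fold, relative to day 0. The amyloid gene Saa3 had signals of 2.76 at day 0, 442 at day 3 and 707 at day 21, with bounds relative to day 0 of at least 42.8-fold at day 3 and at least 62.6-fold at day 21.

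Of the antimicrobial genes, Slpi had signals of 9.46 at day 0, 7166 at day 3 and 8625 at day 21. The day 0 signal was not above background, which leaves bounds of at least 693-fold at day 3 and at least 764-fold at day 21. Camp was the least changed of the measured genes, with signals of 29.0, 166 and 198 on days 0, 3 and 21 on one probe and 23.9, 76.5 and 87.5 on the other. Both Camp probes were above background on all arrays, and both were higher on the later days. They differed in size, 2.50 ± 0.23 and 1.66 ± 0.26 for day 3 minus day 0, a gap of 0.83. Both day 0 signals were under 50, a range in which probes spotted 10 times gave an SD of 0.395 for a difference. The Camp value of 5.64-fold at day 3 is therefore 3.17-fold on the second probe.

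**Figure D2:**
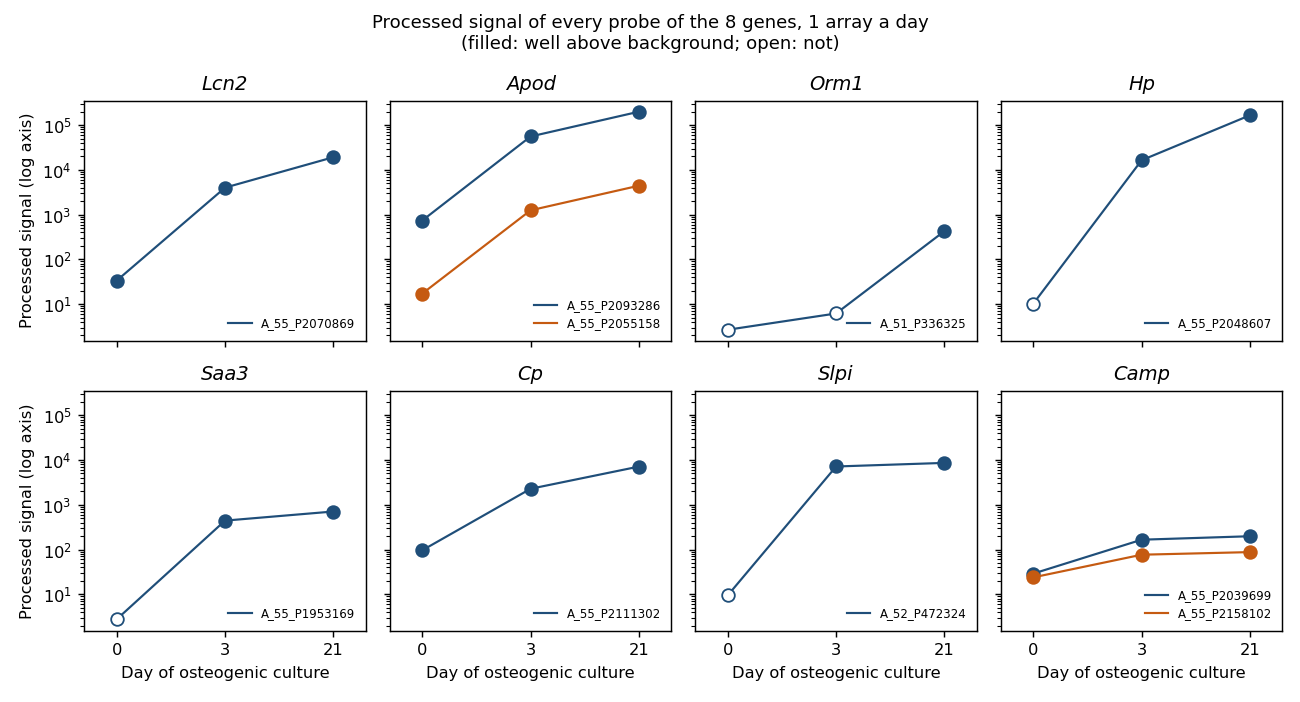
Processed signal (log axis) of each probe of the 8 genes at day 0, 3 and 21, with 1 array a day and days spaced evenly. Filled points are well above background and open points are not: Hp, Slpi and Saa3 were not at day 0, and Orm1 was not at day 0 or 3.

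From day 3 to day 21 the 8 genes differed among themselves. Hp, Lcn2, Apod and Cp were higher again at day 21, and Orm1 appeared, whereas Slpi, Saa3 and Camp stayed within 2-fold of day 3. At day 21, 5 of the 8 genes exceeded their day 3 level by 2-fold or more and 0 fell short of it by as much, where 8.99% and 8.24% of 13803 genes were. Past 16-fold there was 1 of them, Orm1 by its bound, where 0.377% of the genes were. Hp differed most among the 7 measured on both days, by 3.21 ± 0.20 (9.26-fold). Lcn2 followed at 2.13 ± 0.20 (4.38-fold), then Apod at 1.71 ± 0.20 (3.28-fold) and Cp at 1.52 ± 0.20 (2.87-fold). Apod and Cp lay closer to each other than the error of either. Saa3 was higher by 0.55 ± 0.20, and Slpi by 0.14 ± 0.20 and Camp by 0.13 ± 0.21, which is less than the error. The median of all measured genes in this comparison was -0.10.

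The part of the log2 difference from day 0 to day 21 that was present at day 3 can be given for the 4 genes measured on all arrays. It was 76.3% for Lcn2, 78.4% for both Apod probes and 74.9% for Cp, and 95% for the brighter Camp probe. Most of the rise on the log2 scale therefore lay between day 0 and day 3, which for day 3 is also the step between slides. For Hp, Slpi and Saa3 the first step is known only as a bound, and it was larger than the second step in each: at least 10.63 against 3.21 for Hp, at least 9.44 against 0.14 for Slpi and at least 5.42 against 0.55 for Saa3.

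**Figure D3:**
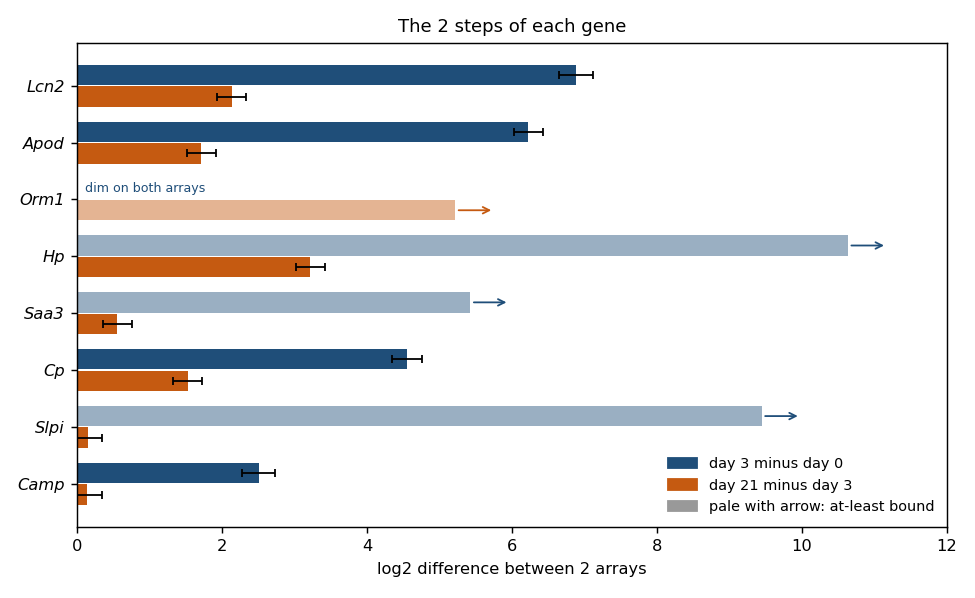
Log2 differences of the 8 genes for day 3 minus day 0 and for day 21 minus day 3, with error-model SDs (bars with whiskers) or at-least bounds (pale bars with arrows). The second step is 3.21 for Hp and 2.13 for Lcn2 and near 0 for Slpi and Camp, and Orm1 has only a second step.

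The scaling shifted all genes together. Spike-in scaling put the median of all measured genes at -0.66 for day 3 minus day 0, against -0.08 here, and at -0.48 against -0.21 for day 21 minus day 0. Of the genes past 2-fold between day 3 and day 0, 13.1% were then higher, against 49.6% here. For day 21 against day 0 that share was 28.3% with spike-in scaling and 54.3% with the 75th percentile of detected probes, against 43.2% here. For day 21 against day 3 it was 77.7% with spike-in scaling, 64.5% with no scaling and 62.6% with the 75th percentile of detected probes, against 52.1% here. Under all of these, 7 of the 8 genes passed 2-fold upward from day 0 to day 3, with Orm1 dim on both arrays. From day 0 to day 21 the count was 8 of 8. From day 3 to day 21 it was 5, and Slpi, Saa3 and Camp were higher by less than 2-fold. With normexp background correction the differences from dim day 0 signals were smaller by construction, since an offset of 50 is added: Lcn2 was then at 5.33, Hp at 7.76, Slpi at 6.68, Saa3 at 2.85, Cp at 3.80 and Camp at 1.35 for day 3 minus day 0, and Orm1 at 2.72 for day 21 minus day 0. With no filter on dim probes Saa3 was at 7.30 at day 3 and Orm1 at 7.17 at day 21.

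The genes nearest to each member in the pair of differences from day 0 were named among the 12221 genes above background on all 3 arrays. The sulfotransferase gene Sult1a1 (7.22 at day 3 and 9.50 at day 21) lay nearest to Lcn2, at a distance of 0.593 on the log2 scale, followed by Apod (1.27) and the interferon-inducible Ifi27l2a (1.32). Nearest to Apod were Ifi27l2a (5.82 and 8.22), the complement inhibitor gene Serping1 (5.48 and 8.28) and the guanine deaminase gene Gda (6.11 and 7.05). Cp lay among Paqr6, the asparaginase gene Aspg and the growth factor binding protein gene Igfbp3, all within 0.254. Camp lay among the microfibril gene Mfap2, the myosin gene Myo1h and the receptor gene Tgfbr2, all within 0.171. Likeness over 3 arrays rests on 2 differences that share the day 0 array.

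**Figure D4:**
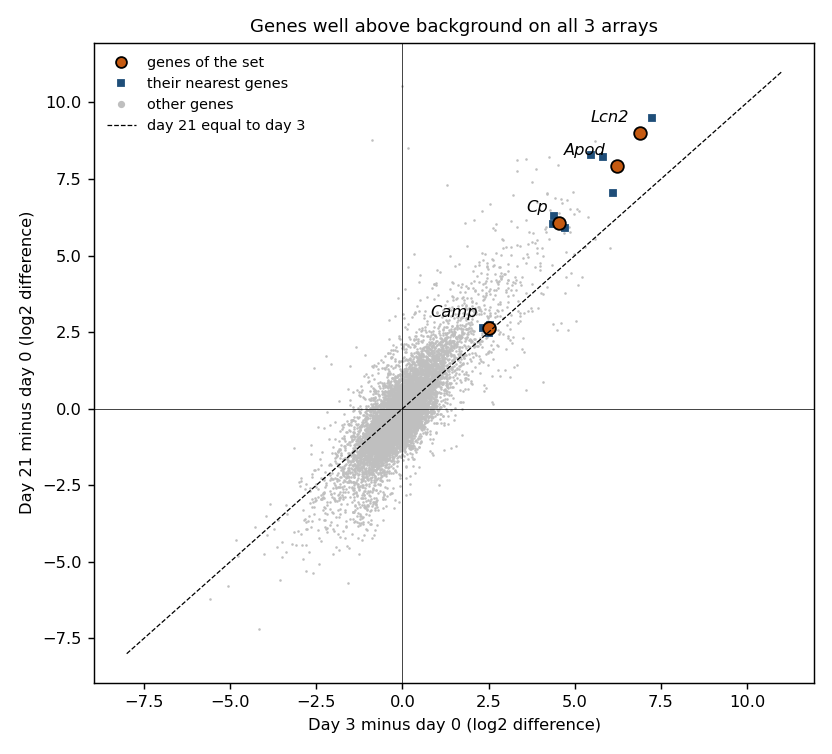
Log2 differences from day 0 at day 3 (horizontal) and day 21 (vertical) of 12221 genes above background on all 3 arrays, which share the day 0 array. Lcn2, Apod and Cp lie above the dashed line of equal differences, at 9.01, 7.93 and 6.07 for day 21, and Camp lies near the line.

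Lists of other genes of these families, not drawn up to hold every member, were set beside the 8. For these lists and those that follow, the shares over all genes past 2-fold from day 0 were 9.32% higher and 8.54% lower at day 3. At day 21 they were 15.4% and 17.7%. These shares leave out genes dim on both arrays, whereas most list sizes include them. Of 17 other listed lipocalins on the array, 12 were not above background at day 3 or day 0, and 3 passed 2-fold at day 3, all higher. Ptgds, which makes prostaglandin D2, was at least 28.8-fold higher at day 3, and C8g, a subunit of complement C8, was 4.28-fold higher (2.10 on the log2 scale, and 1.08 on its other probe). The retinol carrier Rbp4 was at least 2.81-fold higher at day 3, a call lost with spike-in scaling and with normexp. At day 21, 6 were higher than at day 0 and 0 lower: Rbp4 by at least 196-fold, Ptgds by at least 147-fold, Orm2 by at least 55.7-fold and C8g by 9.72-fold led them. Rbp4 had signals of 10.4, 29.7 and 2265 on days 0, 3 and 21, a difference of 6.12 for day 21 minus day 3. Orm2 and Orm3, like Orm1, were above background at day 21 only. Of the epididymal and nasal lipocalins, Lcn3, Lcn4, Lcn5, Lcn8, Lcn9 and Obp2a were not above background on any array. Lcn12 and Lcn6, named after their values were seen, were above background on all 3 and stayed within 2-fold, and Lcn10 was above background at day 21 only.

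Of 22 other acute-phase genes, 9 passed 2-fold at day 3 relative to day 0, all higher, and 8 were dim on both arrays. With spike-in scaling the count at day 3 was 6 higher and 1 lower. For day 21 against day 0, 9 were again higher and 0 lower, or 9 and 2 with spike-in scaling. Over the 7 measured, the median difference was 1.25 at day 3 and 1.65 at day 21, where all measured genes had -0.08 and -0.21. These medians were 0.68 at day 3 with spike-in scaling and 0.74 at day 21 with normexp. The serine protease inhibitors Serpina3n and Serpina3m were at least 127-fold and at least 26.4-fold higher at day 3, the metallothionein Mt2 was 26.8-fold higher and Lrg1, a glycoprotein, was at least 15.7-fold higher. At day 21 Serpina3n was at least 276-fold, Lrg1 at least 196-fold, Serpina3m at least 52.1-fold and Lbp, which carries bacterial lipopolysaccharide, 34.0-fold higher than at day 0. Serpina3n and Serpina3m are close copies, so each value is uncertain. Not above background on any array were Crp, Apcs, Hamp, Saa4, Fgb, Fgg and A2m. Other genes whose proteins are best known from the liver were detected, and are named here after their values were seen. Saa1 was 2.38-fold higher at day 3 and 1.82-fold at day 21, Saa2 was at least 2.50-fold and at least 7.08-fold higher, and Hpx was 3.14-fold higher at day 21. Saa1 and Saa2 had 1 probe each, and whether these probes tell the related genes apart was not tested. The calls of Saa1 and Saa2 at day 3 were lost with spike-in scaling and normexp, and those of Saa2 and Hpx at day 21 with normexp.

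Slpi belongs to the whey acidic protein domain family, of which 9 other listed members were on the array. Of these 9, 6 were higher at day 3 and 6 at day 21 than at day 0, with 0 lower. Wfdc12 was at least 39.7-fold, Wfdc18 34.4-fold and Wfdc21 at least 7.15-fold higher at day 3, with Wfdc17 at least 3.37-fold and Wfdc2 at least 3.36-fold. Wfdc21 had signals of 2.56 at day 0, 74.0 at day 3 and 8839 at day 21. It was 109-fold higher at day 21 than at day 3, whereas Wfdc12 differed by 0.21. Of the 7 measured on both days 3 were higher and 2 lower at day 21, where 8.99% and 8.24% of all genes were. The lower ones were Wfdc3 at -1.75 and Wfdc18 at -1.06. The lower count was 1 with no scaling, with the 75th percentile of detected probes and with spike-in scaling, and 0 with normexp. With normexp background correction the count of genes higher than at day 0 was 3 at day 3 and 5 at day 21.

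Receptors and partners of the encoded proteins were also read. Of all genes, 9.32% were higher and 8.54% lower at day 3, and 15.4% and 17.7% at day 21, relative to day 0. Of 10 measured, 1 was higher and 1 lower at day 3, and 4 higher and 3 lower at day 21, which spike-in scaling turned into 0 and 2 at day 3 and 3 and 3 at day 21. Slc22a17, a receptor for Lcn2, was at 0.55 at day 3, which became -0.02 with spike-in scaling, and at 1.73 at day 21. Lrp2 (megalin), which takes up many lipocalins, was lower at -2.66 and -1.47. Cd14 was at 1.46, below 2-fold with spike-in scaling, and at 2.22, and Tlr2 was at 2.14 and Scarb1, a lipoprotein receptor that also binds serum amyloid A, at -1.83 at day 21. The haptoglobin receptor Cd163 and the formyl peptide receptor Fpr2, a receptor for serum amyloid A and cathelicidin, were not above background on any array.

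Of 23 regulators of acute-phase transcription, all measured, 12 were at least 2-fold higher and 0 lower at day 3, with a median of 1.51, and 15 and 0 at day 21, with a median of 1.53. The others stayed within 2-fold of day 0 on both days, among them Stat3 and 4 NF-kB subunit genes, named after their values were seen. For day 3 and day 21, Rela was at 0.03 and -0.26 and Nfkb2 at -0.01 and -0.43. Nfkb1 was at 0.45 and 0.96 and Relb at 0.44 and 0.38. The signs of all 4 turned with the scaling at day 3, and that of Rela at day 21. The NF-kB inhibitor gene Nfkbia was at 0.72 and 1.09, past 2-fold at day 21. Spike-in scaling gave 11 higher and 1 lower at day 3. Bcl3, a co-regulator of NF-kB, was at 3.72, the glucocorticoid-inducible Fkbp5 at 3.28, the transcription factor Cebpd at 3.11 and the cytokine signalling inhibitor Socs3 at 3.06 for day 3 minus day 0. For day 21 minus day 0, the transcription factor Cebpa was at 5.03, the receptor Lifr at 4.65, the glucocorticoid-inducible Tsc22d3 at 4.42 and Fkbp5 at 4.19. Between day 21 and day 3, 3 of the 23 genes passed 2-fold, all higher, Lifr at 2.55, Cebpa at 2.18 and Tsc22d3 at 1.56. That count was 5 with no scaling and 6 with spike-in scaling.

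Of 10 inducing cytokines, 6 (Il1a, Il1b, Tnf, Osm, Il17a and Il22) were not above background on any array. The other 4 were at least 2-fold lower at day 3 and at day 21 than at day 0, where 8.54% and 17.7% of all genes were. Il6 had signals of 386 at day 0, 136 at day 3 and 35.0 at day 21, a difference of -1.52 at day 3 and -3.61 at day 21. Il11 was at -2.28 and -2.25 and Clcf1 at -1.86 and -2.56. Lif was above background at day 0 only, and its day 3 level was at least 2.08-fold lower, a call lost with the 75th percentile of detected probes and with normexp.

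Lcn2 and Cp act on iron, and the iron genes moved in both directions. Of 16, 4 were higher and 2 lower at day 3, relative to day 0, where 9.32% and 8.54% of all genes were. At day 21, 7 were higher and 2 lower, where 15.4% and 17.7% of all genes were. Spike-in scaling gave 3 higher and 4 lower at day 3. The ferrireductase Steap3 was at 2.84 and 4.24 on the probe that represents it, and at 1.49 and 2.50 on its other probe. The iron carrier Trf (transferrin) was at 2.32 and 6.45, and Hfe at 2.00 and 3.48. The transferrin receptor Tfrc was lower at -1.88 and -3.30, with signals of 192, 53.0 and 21.8 on days 0, 3 and 21, and of its other 2 probes 1 was above background at day 0 and day 3 only, with signals of 63.4 and 17.9, and 1 on no array. Heph, a membrane homologue of ceruloplasmin, was at 2.13 for day 21 minus day 0 on 1 of its 3 probes, and the others were not above background. Trf and Tfrc thus differed in opposite directions on both days.

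**Figure D5:**
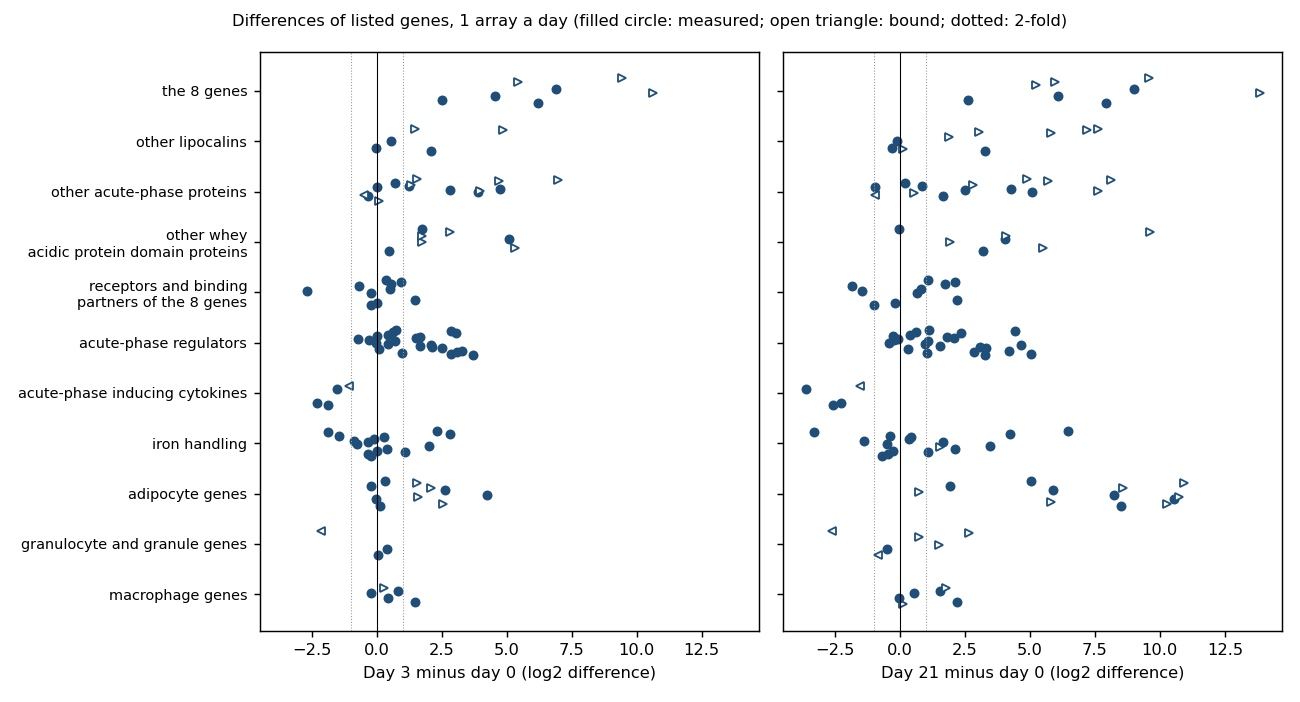
Log2 differences from day 0 at day 3 (left) and day 21 (right), which share the day 0 array, for the 8 genes and 10 lists. Each point is 1 gene, measured (filled circles) or bounded (open triangles pointing along the difference), genes dim on both arrays have no point, and the dotted lines mark 2-fold. The 8 genes run from 2.50 to 10.63 at day 3, and the cytokines lie below 0 on both days.

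Markers of other cell types that make these proteins were read beside them. Of all genes not dim on both arrays, 9.32% were higher and 8.54% lower at day 3 than at day 0, past 2-fold. For day 21 against day 0 the shares were 15.4% and 17.7%. The list sizes below also count dim genes. Of 12 adipocyte genes 6 were higher at day 3 (2 with normexp) and 11 at day 21, and 6, 10 and 12 were above background on days 0, 3 and 21. The log2 of the list's summed level relative to the array's 75th percentile was 3.08, 5.25 and 10.29 on days 0, 3 and 21. Cfd, a defining adipocyte protease, had signals of 46.8, 47.2 and 77159 on days 0, 3 and 21, and Adipoq of 2.77, 60.5 and 13986. Among the list's measured genes, Fabp4 (4.25) and Lpl (2.64) passed 2-fold for day 3 minus day 0, and the others stayed within it. Fabp4 and Lpl were at 8.23 and 5.91 for day 21 minus day 0. The adipocyte genes' part in the values of the 8 genes was not tested. Camp and Lcn2 are also stored in neutrophil granules, and of 14 granulocyte genes 2 were higher, 1 lower and 8 dim on both arrays for day 21 against day 0. Ltf, Ngp, Mpo and Ctsg were not above background on any array. S100a8 was at least 6.41-fold and Mmp8 at least 2.85-fold higher and S100a9 at least 6.09-fold lower at day 21, and Prtn3 was above background at day 21 only. The granulocyte sum was 2.24, 2.55 and 1.94, largely from Elane, named after its values were seen, with signals of 721, 955 and 571. The macrophage sum was 5.91, 5.75 and 6.44, largely from 1 of 3 Itgam probes. That probe had signals of 9633, 8333 and 15404 on days 0, 3 and 21, and the other 2 were between 3.46 and 30.1, while Ptprc and Adgre1 were not above background on any array. Of 12 macrophage genes 3 were higher and 0 lower at day 21 than at day 0, Cd14 by 4.65-fold, Marco by at least 3.44-fold and Lyz2 by 2.94-fold, and Csf1r was above background throughout. The part of these genes in the values of the 8 genes was not tested. Of 9 hepatocyte genes 3 were higher and 1 lower at day 21 than at day 0. Cyp2e1, also known from adipocytes, was at least 147-fold, Tat 3.48-fold and Ttr at least 2.45-fold higher, and Apoh was at least 2.76-fold lower. Ahsg was above background at day 21 only, and Alb, Apoa1, Fgb and Hnf4a were on no array. The list's sum was -1.73, -1.49 and 3.23. With normexp the day 21 counts were 1 higher and 0 lower in each of the granulocyte, macrophage and hepatocyte lists. Of 8 epithelial genes, 2, 4 and 4 were above background on days 0, 3 and 21, and Epcam, Cdh1 and Krt8 were on no array. Krt18 and Krt19 were lower at -2.74 and -3.87 at day 21. Cldn4 was above background at day 3 only, Krt5 at day 3 and day 21, and Krt14 at day 21 only. The epithelial sum was 2.81, 1.30 and -0.49.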

How the data were processed

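The authors deposited scanner files with linear spot intensity from Agilent Feature Extraction, version 10.10.1.1 per the file headers and 12.0 per the submitters' processing notes. The deposited processed intensity had its background removed array by array, with no scaling across arrays, per the file headers. A value table from the authors held the same intensity (largest relative difference 0). The marks for well above background, saturation and outliers are other values the authors deposited per spot. Log2 of the signal was taken minus the array's 75th percentile over 59305 non-control spots. Outlier spots (115 to 200 an array) were left out and spots of a probe averaged. Probes were named through unversioned transcript accessions in the RefSeq table (26755 matched 1 gene, 28909 matched none), and the probe of highest mean stood for a gene. Calls used a fixed 2-fold rule, which carries no error rate. The members, the 14 other lists, the rule for named genes (up to 4 a list by size past 2-fold, and 3 nearest genes a member) and the 12 alternatives were chosen with earlier results of these data known. Motifs were chosen after the data were seen. With 1 array a group, the number of arrays limits the precision. Python 3.11.15, pandas 2.3.3, R 4.3.3 and limma 3.58.1 (normexp, offset 50, on median signals, as no mean signal is in the files) were used.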

Additional observations from a re-analysis of the deposited data

How the results depend on the processing

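Under 10 alternatives for scaling, background, dim probes, probe choice and source of values, the differences of the 8 genes gave 230 values, all of them higher on the later day. As the genes were picked largely for rising, this direction is no check of them. Some values could not move. The authors' value table equals the scanner files, dim values raised to the detection limit return the bounds, and probe choice can alter only Apod and Camp. The counts that stayed include such values. Counting those that moved by less than the technical SD of a difference (0.2), 53 of 70 stayed for day 3 against day 0, 58 of 80 for day 21 against day 0 and 66 of 80 for day 21 against day 3. The number of the 8 genes at least 2-fold higher on the later day stayed within 1.5 times in all comparisons and alternatives, except that 3 of them rather than 5 were at least 4-fold higher at day 21 than at day 3. Ranges were wide for Saa3, whose day 3 minus day 0 value ran from 2.85 with normexp to 7.30 with no filter on dim probes. Orm1 ran from 2.72 to 7.17 for day 21 minus day 0, and Hp from 11.06 to 14.20. Normexp adds an offset by construction, and a dim probe read without a filter rests on a signal near the scanner's floor. Over all measured genes, 963 were higher and 978 lower past 2-fold between day 3 and day 0, against 505 and 3362 with spike-in scaling and 582 and 550 with normexp. No paired analysis was possible because each group has 1 array. Signal over background limits Orm1 at day 0 and day 3 and Hp, Slpi and Saa3 at day 0 to bounds. Spots of 1 probe varied by an SD of 0.279 in log2 value below a signal of 50, against 0.138 over all spots above background.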
